A study of Homo sapiens with 6 samples.

Results

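HSP90 is an abundant cytosolic chaperone that folds and holds kinases, steroid receptors and other client proteins through a cycle of ATP binding, closure and hydrolysis. Cochaperones set the pace of that cycle: some bring clients in, some clamp or release the closed form, some speed up the ATPase. Part of this machinery is transcribed by HSF1, the factor that drives the heat shock response. The 10 genes described here are both cytosolic HSP90 genes, HSP90AA1 and HSP90AB1, and the cochaperone genes STIP1, CDC37, AHSA1, PTGES3, FKBP4, FKBP5, CHORDC1 and CACYBP. They were taken from the count table by symbol, and all 10 were found among the 56638 rows of the count table and passed the filter on low counts.

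Poly(A) RNA was sequenced from MOLM-13, an established line grown from acute monocytic leukaemia, in which KMT2A is fused to MLLT3 and FLT3 has an internal tandem duplication. Cells had been kept for 24 h with 2 µM UC-764864, named in the series title as an inhibitor of the ubiquitin-conjugating enzyme UBE2N (the design text spells the compound UC-744864), or with DMSO, its solvent. Libraries UDI0051, UDI0052 and UDI0053 came from treated cells and UDI0054, UDI0055 and UDI0056 from DMSO controls. All are from 1 cell line, and the labels do not say whether the 3 libraries of a group were separate cultures, so the p-values speak only to the spread of these libraries, which may be technical.

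Libraries held 16136156 to 25014437 counts. In UDI0055, 3799 rows stand at 0 in 2 unbroken stretches of the table; they were read as missing and left out for all libraries, and none of the 10 genes lies on them. All 10 myeloid leukaemia markers checked, among them CD33, FLT3, LYZ and MPO, were above 1 CPM (counts scaled to a common library size) in each library, while 0 of 6 lymphoid, 0 of 4 erythroid and 2 of 8 epithelial and stromal markers were, the 2 being the keratin genes KRT8 and KRT18. The summed myeloid markers stood at 6777 to 7769 CPM after UC-764864 and 4639 to 4931 CPM after DMSO (1 of the 10 called higher and 2 lower). Taken singly, 6 of the 10 had negative and 4 positive log2 fold changes, with a median of -0.13, so the sum does not stand for most of them. The part of this in the results below was not tested. The summed epithelial and stromal markers stood at 18.4 to 19.7 CPM after UC-764864 and 17.6 to 20.9 CPM after DMSO, with 2 of 3 tested genes lower without overlap and 0 called. The lymphoid sum was 1.23 to 1.74 and 1.92 to 2.65 CPM, with both tested genes lower without overlap and 1 called. Of all tested genes, 17.0% were lower without overlap, and 8.13% were called lower and 5.11% higher in the test given below. Genes of at least 60% GC took 8.61% of the counts in UDI0052 and 8.79% in UDI0056, against 10.4% to 12.1% in the other libraries, and genes under 40% GC took 11.7% to 14.2% after UC-764864 and 13.3% to 18.2% after DMSO.

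After UC-764864, 5 of the 10 transcripts were higher and 1 was lower (edgeR quasi-likelihood test, Benjamini-Hochberg adjusted p under 0.05 over 13490 genes). AHSA1, STIP1, FKBP4, HSP90AA1 and HSP90AB1 rose 1.33-fold to 1.60-fold, and PTGES3 fell to 0.679 of its DMSO level. Across all tested genes, 5.11% were higher and 8.13% lower, 13.2% in either direction. The median log2 fold change of the 10 was 0.36, against 0.01 over all tested genes. In 8 of the 10 the libraries of the groups did not overlap, 7 with the treated libraries higher and 1 with them lower, where 19.0% and 17.0% of all tested genes stood apart in those directions. DESeq2 also called 5 higher and 1 lower, against 6.37% and 9.29% of all genes. The counts depend on single libraries: they were 0 and 0 without UDI0051, 3 and 1 without UDI0052, 2 and 0 without UDI0053, 1 and 1 without UDI0054, 4 and 1 without UDI0055, and 0 and 0 with every row kept as deposited. Over these fits 0.157% to 11.1% of all tested genes were higher and 0.891% to 12.6% lower. In bulk RNA, a different share of cells and a different amount of RNA per cell cannot be told apart.

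**Figure D1:**
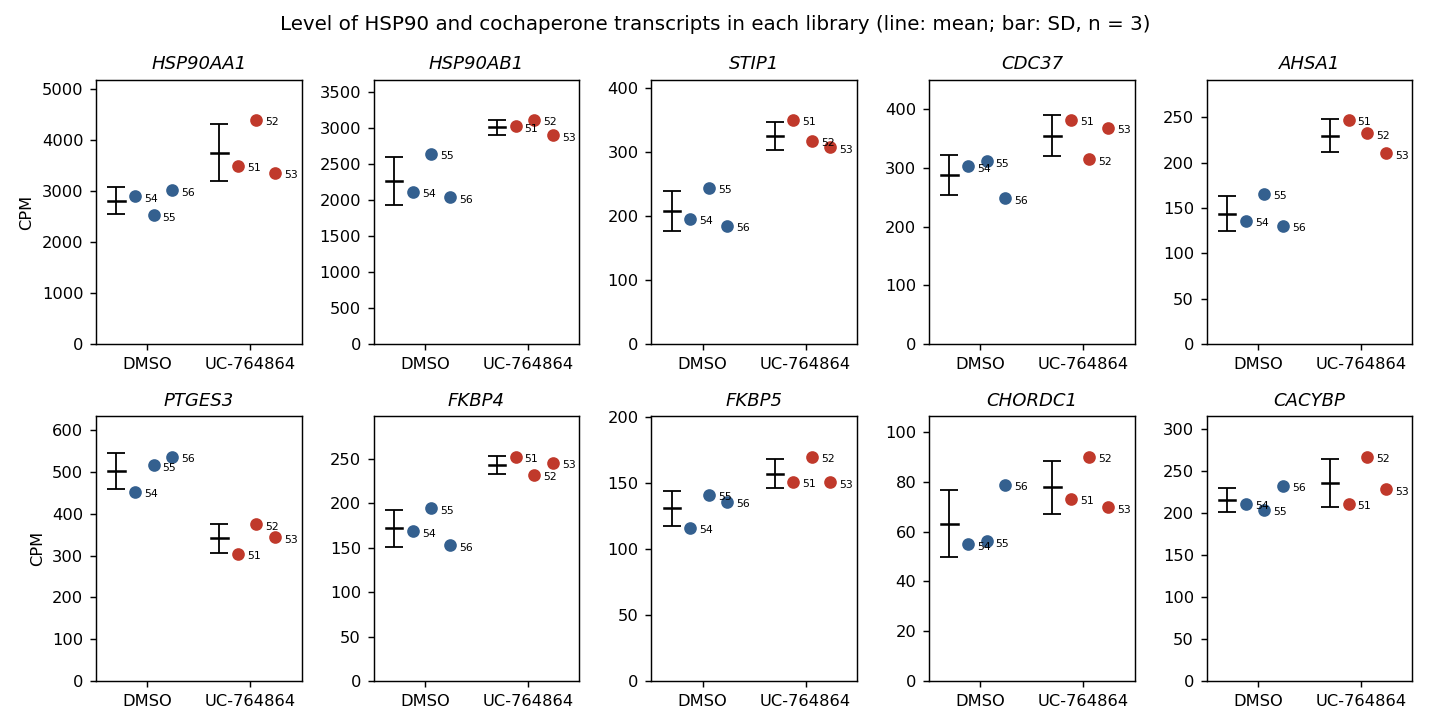
Level of each transcript in CPM (vertical axes start at 0) in the 3 DMSO libraries (blue) and the 3 UC-764864 libraries (red), with the last 2 digits of the library name beside each point, the mean as a line and the SD as a bar. PTGES3 is the panel in which the treated libraries sit below the controls, and CHORDC1 and CACYBP are the panels in which the groups overlap.

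The letters to which HSF1 binds, inverted repeats of GAA, were looked for in the 250 bases before each annotated RefSeq start (GRCh38.p14), to show which of these genes carry them. The motif was GAANNTTCNNGAA or TTCNNGAANNTTC, which are each other's reverse complement, so both strands were covered; overlapping matches were merged. It occurred in 0.441% of 35116 such windows, those of 152 of 27305 genes. Among the 9 of the 10 genes with a window in the RefSeq table (16 windows in all, none for FKBP4), HSP90AA1, HSP90AB1 and CHORDC1 held it. The matched letters are in capitals, with lower-case flanks, each printed 5′ to 3′ on the gene's own strand.
HSP90AA1, chr14:102087111-102087140, minus strand: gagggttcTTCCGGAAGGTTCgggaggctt
HSP90AB1 distal, chr6:44247770-44247799, plus strand: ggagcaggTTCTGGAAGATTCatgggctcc
HSP90AB1 proximal, chr6:44247823-44247852, plus strand: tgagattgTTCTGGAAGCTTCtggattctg
CHORDC1, chr11:90223083-90223112, minus strand: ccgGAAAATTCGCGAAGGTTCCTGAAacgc
The HSP90AA1 block spans bases -88 to -76 before the more downstream of its annotated starts, and the HSP90AB1 blocks span -165 to -153 and -112 to -100 before the most downstream of 3 annotated starts. The CHORDC1 block was the longest, with 5 repeats in a row over 23 bases from -60 to -38. A match is a description of the letters and not a measured binding site.

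HSP90AA1 encodes HSP90 alpha, the stress-inducible form. It stood at 3493 CPM in UDI0051, 4388 in UDI0052 and 3361 in UDI0053, and at 2895 in UDI0054, 2525 in UDI0055 and 3018 in UDI0056. Each treated library lay above each control, and UDI0052 was the highest of all. The mean went from 2812 ± 256 to 3747 ± 559 CPM (SD, n = 3 per group), a log2 fold change of 0.41 ± 0.12 (SE; edgeR adjusted p = 0.0469). The call was near the threshold: adjusted p was 0.103, 0.178, 0.0628, 0.118 and 0.0574 without UDI0051, UDI0052, UDI0053, UDI0054 and UDI0055 in turn, with log2 fold changes from 0.26 to 0.49 over all fits that left out a library.

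HSP90AB1 encodes HSP90 beta, the constitutive form. Its values were 3019, 3108 and 2897 CPM in UDI0051, UDI0052 and UDI0053, and 2116, 2642 and 2035 CPM in UDI0054, UDI0055 and UDI0056. The treated libraries lay within a narrow band above the controls, of which UDI0055 was the highest. The log2 fold change was 0.41 ± 0.12 (edgeR adjusted p = 0.0391), with means of 2264 ± 329 and 3008 ± 106 CPM. It missed the threshold without UDI0051, UDI0052, UDI0053, UDI0054 or UDI0056 (edgeR adjusted p = 0.142, 0.0999, 0.0856, 0.145 and 0.0851). Without UDI0055 it was 0.54 (edgeR adjusted p = 0.00401).

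The balance of the HSP90 genes is a ratio within a library and does not depend on scaling between libraries. HSP90AA1 counts were 1.16, 1.41 and 1.16 times the HSP90AB1 counts in UDI0051, UDI0052 and UDI0053, and 1.37, 0.956 and 1.48 times in UDI0054, UDI0055 and UDI0056. The groups overlapped throughout, with a mean log2 ratio of 0.31 ± 0.16 after UC-764864 and 0.32 ± 0.34 after DMSO (difference -0.01, two-sided exact permutation p = 1; 3 against 3 cannot go below 0.10). The 3 libraries with most counts in genes of at least 60% GC (UDI0051, UDI0053 and UDI0055) had the 3 lowest ratios, 0.956 to 1.16, and the other 3 had ratios of 1.37 to 1.48. HSP90AA1 has 45.2% GC and HSP90AB1 48.1%; the part of GC in the ratio was not tested. Per kilobase of exon, HSP90AB1 was at 760 ± 111 CPM and HSP90AA1 at 698 ± 63.7 CPM after DMSO, levels that overlapped between libraries.

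**Figure D2:**
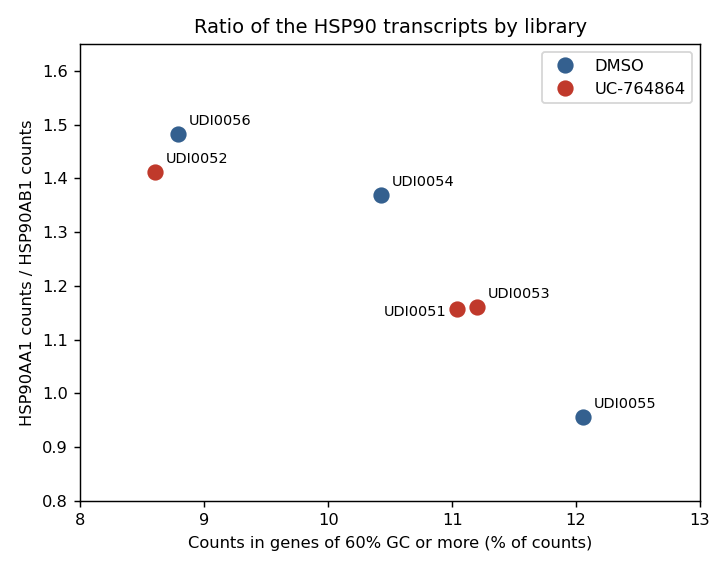
Ratio of HSP90AA1 to HSP90AB1 counts in each library (vertical axis, from 0.8) against the percent of counts in genes of at least 60% GC (horizontal axis). UDI0055, at 12.1% and 0.956, and UDI0056, at 8.79% and 1.48, are both DMSO libraries and have the lowest and the highest ratio.

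STIP1 and CDC37 encode the cochaperones that bring clients in. STIP1, also called HOP, holds HSP70 and HSP90 together through its tetratricopeptide (TPR) domains. It was at 350, 318 and 308 CPM in UDI0051, UDI0052 and UDI0053, and at 196, 244 and 185 CPM in UDI0054, UDI0055 and UDI0056. These groups stood apart by more than their own spread, and the rise was 1.56-fold (log2 0.64 ± 0.13, edgeR adjusted p = 0.0117). The call was lost without UDI0051 (edgeR adjusted p = 0.0621) and without UDI0054 (0.0572).

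CDC37, which delivers protein kinases to HSP90, was at 381, 315 and 368 CPM in UDI0051, UDI0052 and UDI0053, and at 303, 311 and 248 CPM in UDI0054, UDI0055 and UDI0056. UDI0052 and UDI0056 were the lowest of their groups, and UDI0052 lay only just above UDI0055. The log2 fold change of 0.30 ± 0.13 did not pass (edgeR adjusted p = 0.122; 95% interval 0.03 to 0.58). At 59.95% it is the most GC-rich of the 10 transcripts.

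AHSA1 and PTGES3 encode cochaperones that act on the ATPase cycle in opposite ways, and their transcripts moved in opposite directions. AHSA1, the activator of the HSP90 ATPase, had the largest rise of the 10, 1.60-fold (log2 0.67 ± 0.13, edgeR adjusted p = 0.00952). It was at 247, 232 and 211 CPM in UDI0051, UDI0052 and UDI0053, against 136, 165 and 130 CPM in UDI0054, UDI0055 and UDI0056. The lowest treated library thus lay well above the highest control. The call was lost only without UDI0051 among fits that left out 1 library (edgeR adjusted p = 0.0521), and with every row as deposited (0.0568).

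PTGES3 encodes p23, which binds the closed, ATP-bound form of HSP90 and slows hydrolysis. It was at 305, 375 and 344 CPM in UDI0051, UDI0052 and UDI0053, and at 453, 516 and 537 CPM in UDI0054, UDI0055 and UDI0056. Each treated library lay below each control. The log2 fold change was -0.56 ± 0.12 (edgeR adjusted p = 0.0149), and the call was lost without UDI0051 (0.0984) and without UDI0053 (0.0576). Removing the GC trend of each library left it at -0.55 ± 0.08 (adjusted p = 0.000506).

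PTGES3 has annotated copies, 5 in the table and 3 of them with counts, to which its reads can be split. Their summed counts were 84, 87 and 100 in UDI0051, UDI0052 and UDI0053 and 252, 343 and 311 in UDI0054, UDI0055 and UDI0056, or 1.24% to 3.82% of the PTGES3 count. The copies fell by more than PTGES3 itself, with log2 fold changes of -1.72 ± 0.24 for PTGES3P1, -1.55 ± 0.33 for PTGES3P3 and -1.34 ± 0.34 for PTGES3P4 (edgeR adjusted p = 0.00321, 0.0152 and 0.0284); the difference from PTGES3 was not tested. With the copies added to PTGES3 its log2 fold change was -0.58 (edgeR adjusted p = 0.0134). PTGES3L, a separate p23-like gene, also fell, by 0.85 ± 0.14 on the log2 scale (edgeR adjusted p = 0.00647).

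For the other genes copies took little: at most 0.0855% of the HSP90AA1 count, 0.933% of HSP90AB1 and 0.342% of CACYBP. Of the HSP90 copies, HSP90AA4P rose at very low counts, 32, 41 and 33 in the treated and 23, 24 and 14 in the control libraries (log2 0.96 ± 0.28, edgeR adjusted p = 0.0457), and HSP90AB3P, with 276 to 461 counts, had a log2 fold change of 0.01 ± 0.13.

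FKBP4 and FKBP5 encode FKBP52 and FKBP51, TPR immunophilins that act on steroid receptors held by HSP90, the former favouring and the latter restraining hormone binding. FKBP4 was at 253, 233 and 246 CPM in UDI0051, UDI0052 and UDI0053 and at 169, 195 and 153 CPM in UDI0054, UDI0055 and UDI0056. The treated libraries were tight and stood above all controls (log2 0.50 ± 0.12, edgeR adjusted p = 0.0209), but the call was lost without UDI0051, UDI0053 or UDI0054 (edgeR adjusted p = 0.111, 0.0778 and 0.0869). In GENCODE 29, exons of ITFG2-AS1 overlap those of FKBP4 on the other strand over 187 bases and those of AC005841.1 over 285, and without strand such reads cannot be told apart.

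FKBP5 was at 151, 170 and 151 CPM in UDI0051, UDI0052 and UDI0053 and at 116, 141 and 136 CPM in UDI0054, UDI0055 and UDI0056. The groups did not overlap, yet the log2 fold change of 0.26 ± 0.12 did not pass (edgeR adjusted p = 0.151; 95% interval 0.01 to 0.52). FKBP5 is itself a classic target of the glucocorticoid receptor. Of 11 tested genes in a list of that receptor (NR3C1) and its other targets, 5 fell and 0 rose. At an unadjusted edgeR p under 0.05, and by DESeq2, 0 were higher too. Over all tested genes, 8.13% fell and 5.11% rose. TSC22D3, a further target on the list, was tested only with every row as deposited. DDIT4 was at -1.05 ± 0.17, KLF9 at -0.82 ± 0.15, CEBPD at -0.72 ± 0.20 and DUSP1 at -0.48 ± 0.14. ERRFI1, with 2.39 CPM after DMSO and 1.23 CPM after UC-764864, was at -0.97 ± 0.25. The edgeR adjusted p of these 5 ran from 0.00588 to 0.0421. These genes also answer to other signals, DDIT4 to low oxygen and amino acid stress and DUSP1 to growth factors. Without UDI0051 or UDI0054 the count was 2, and without UDI0052 or UDI0053 it was 3, where 2.03% to 6.79% of all genes fell. NR3C1 had a log2 fold change of -0.28 ± 0.15 (edgeR adjusted p = 0.209), and the list's median was -0.28.

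CHORDC1 and CACYBP are the members with the lowest GC content, 35.0% and 39.5%, and the members whose groups overlapped. CHORDC1, a zinc-binding cochaperone with a p23-like CS domain, was at 73.3, 90.1 and 69.8 CPM in UDI0051, UDI0052 and UDI0053 and at 54.9, 56.1 and 78.8 CPM in UDI0054, UDI0055 and UDI0056. UDI0052 and UDI0056, which had the fewest counts in GC-rich genes, were the highest of their groups. The log2 fold change was 0.30 ± 0.16 (edgeR adjusted p = 0.223; 95% interval -0.05 to 0.65). It was 0.49 without UDI0056 (edgeR adjusted p = 0.0245), 0.15 without UDI0052 (0.566) and 0.34 without both (0.0402). With the GC trend removed it was 0.80 ± 0.07 (edgeR adjusted p = 5.26e-05), the largest value of the 10 under that setting, and 0.76 when UDI0052 and UDI0056 were also left out (0.00317). AP002364.1, on the other strand, overlaps 212 bases of its exons in GENCODE 29.

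CACYBP, a partner of the ubiquitin ligase SIAH1 with a CS domain, was at 211, 267 and 228 CPM in UDI0051, UDI0052 and UDI0053 and at 210, 203 and 232 CPM in UDI0054, UDI0055 and UDI0056. Apart from UDI0052 the values of the groups were interleaved. The log2 fold change was 0.13 ± 0.12 (edgeR adjusted p = 0.498; 95% interval -0.14 to 0.39), and 0.00066 without UDI0052. With the GC trend removed it was 0.31 ± 0.07 (edgeR adjusted p = 0.00534).

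Removal of each library's GC trend called 9 of the 10 transcripts higher and PTGES3 lower, where 16.2% and 15.4% of the 11647 genes with a GC value were called in those directions. The genes added were CHORDC1, CACYBP, FKBP5 (0.33) and CDC37 (0.24). The 5 transcripts called higher without it had smaller values with it, from 0.28 for HSP90AB1 to 0.53 for AHSA1. The trend differed between libraries and also between the groups, so this setting takes out any treatment difference that follows GC. When UDI0052 and UDI0056 were also left out, 4 were higher (AHSA1, STIP1, FKBP4 and CHORDC1) and PTGES3 was lower. Of the 11798 genes tested in that fit, 4.85% were higher and 6.59% lower.

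**Figure D3:**
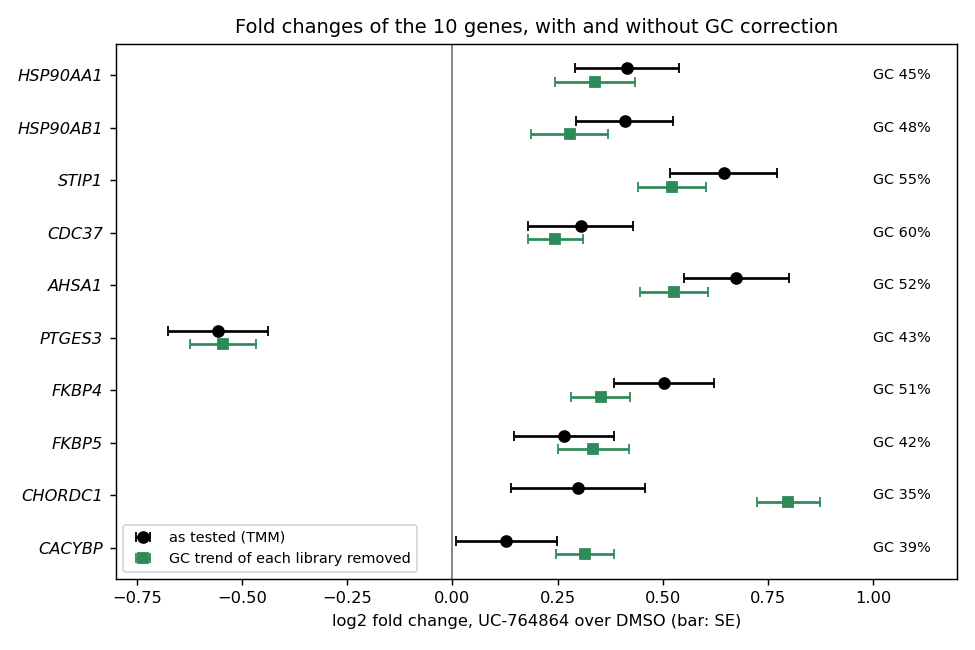
Log2 fold change of each transcript (UC-764864 over DMSO) as tested with TMM scaling (black circles) and with the GC trend of each library removed (green squares), bars showing the SE and the GC content of the longest transcript at the right. CHORDC1 moves from 0.30 to 0.80, and PTGES3 is at -0.56 and -0.55.

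The level per kilobase of exon was also divided, within each library, by the summed level of HSP90AA1 and HSP90AB1. Because that sum rose, an unchanged gene falls on this measure: the treated libraries lay below all controls for 54.4% of the other 13488 tested genes and above them for 1.14%. Of the 8 cochaperones, PTGES3 and CACYBP lay below and none above, a smaller share than over all genes, and the groups of the other 6 overlapped. PTGES3 was at 7.80%, 8.47% and 9.16% of that sum in UDI0051, UDI0052 and UDI0053 and at 15.3%, 16.4% and 18.0% in UDI0054, UDI0055 and UDI0056. On the log2 scale its count ratio to the HSP90 genes was lower by a mean of 0.97, with no overlap (difference -0.97, two-sided exact permutation p = 0.10, the smallest that 3 against 3 allows; the ratio was chosen after its values were seen). CACYBP went from 4.01% ± 0.37 to 3.29% ± 0.21 (SD, n = 3), also without overlap, while its own level had overlapped. AHSA1 was at 4.59% to 5.52% after DMSO and 5.50% to 6.63% after UC-764864, and STIP1 at 4.36% to 5.45% and 5.04% to 6.29%, with overlap in both cases. CDC37, FKBP4, FKBP5 and CHORDC1 overlapped too, at 12.2%, 3.11%, 0.845% and 0.642% after DMSO and 11.5%, 3.34%, 0.765% and 0.589% after UC-764864.

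**Figure D4:**
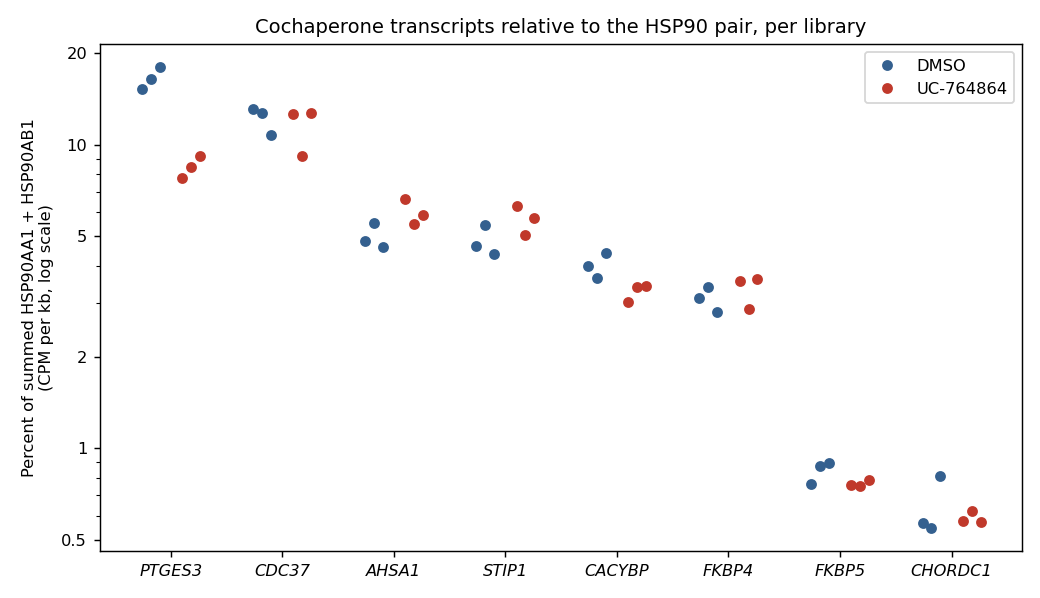
Level of each cochaperone transcript as a percent of the summed HSP90AA1 and HSP90AB1 level in the same library (CPM per kilobase, logarithmic axis), for DMSO (blue) and UC-764864 (red) libraries. PTGES3 is the highest after DMSO, at 15.3% to 18.0%, and drops to 7.80% to 9.16%, below CDC37 in each treated library.

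The 10 transcripts together took 0.665% to 0.700% of scaled counts after DMSO and 0.818% to 0.950% after UC-764864. Their summed level rose from 6800 ± 179 to 8721 ± 688 CPM without overlap (two-sided exact permutation p = 0.10, the smallest possible). HSP90AA1 and HSP90AB1 made up most of it, 5077 ± 80.6 and 6755 ± 654 CPM.

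The rest of the HSP90 system was read from lists of genes outside the 10. Both organelle forms had positive values: TRAP1, the mitochondrial HSP90, rose (log2 0.55 ± 0.16, edgeR adjusted p = 0.0412), and HSP90B1, the endoplasmic reticulum form, at 1153 ± 58.8 and 1428 ± 214 CPM, did not pass (log2 0.31 ± 0.12, edgeR adjusted p = 0.105). TRAP1 passed only without UDI0055 (edgeR adjusted p = 0.00742) among the fits that left out 1 library, with values of 0.0589 to 0.173 in the other 5. With the GC trend removed, both were called higher, where 16.2% of all genes were, against 5.11% without that step. When UDI0052 and UDI0056 were also left out, neither was called.

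Of 14 other TPR cochaperones tested, 3 rose and 0 fell (0 lower at an unadjusted p under 0.05 and 0 by DESeq2), with a median of 0.26. Over all tested genes, 5.11% rose and 8.13% fell. The 3 that rose were TTC4 (log2 0.90 ± 0.20), PPID, a cyclophilin gene (0.50 ± 0.13), and PPP5C, a phosphatase gene (0.43 ± 0.13). Their edgeR adjusted p were 0.0179, 0.0282 and 0.0456, and TTC4 went from 2.47 ± 0.569 to 4.65 ± 0.461 CPM. Without UDI0051 the count was 0, and without UDI0052, UDI0053 or UDI0054 it was 1, where 0.452% to 2.12% of all genes rose. Without UDI0055 it was 5, where 11.1% of all genes rose. With the GC trend removed it was 7 of 13, where 16.2% of all genes rose. The median of the list stayed positive, 0.17 to 0.32 in the alternatives run.

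Of 12 further cochaperones tested, 1 rose and 1 fell (8.33% each), where 5.11% and 8.13% of all tested genes did. They were listed apart from the TPR proteins, although SUGT1 among them has a TPR domain. NUDC, a CS-domain protein, rose from 110 ± 25.2 to 186 ± 15.7 CPM (log2 0.76 ± 0.16, edgeR adjusted p = 0.0134). CDC37L1, a relative of CDC37, fell from 12.3 ± 0.906 to 8.32 ± 0.962 CPM (log2 -0.56 ± 0.14, edgeR adjusted p = 0.0286). NUDC was not called without UDI0051 or UDI0054 (edgeR adjusted p = 0.0564 and 0.0614). CDC37L1 was not called without UDI0051, UDI0053 or UDI0054 (edgeR adjusted p = 0.172, 0.0816 and 0.089), nor with the GC trend removed, where it was at -0.23. The median of these 12 was -0.03. With the GC trend removed it was 0.06 over 11 genes, as AHSA2 has no GC value. Without AHSA2, the middle value as tested was already that of FLCN, 0.05.

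In the R2TP and TTT assemblies, with which HSP90 builds PIKK kinases and other complexes, 2 of 8 rose and 0 fell. At an unadjusted edgeR p under 0.05, and by DESeq2, 0 were lower too. Of all tested genes, 5.11% rose and 8.13% fell. RUVBL1, an AAA+ ATPase, rose 1.56-fold (log2 0.64 ± 0.12, edgeR adjusted p = 0.011), and TTI1, a TTT subunit, rose 1.36-fold (log2 0.45 ± 0.12, edgeR adjusted p = 0.0346). The count was 0 without UDI0051 or UDI0054 and 1 without UDI0052 or UDI0053, where 0.452% to 2.12% of all genes rose. RUVBL2, the partner of RUVBL1, had a log2 fold change of 0.27 ± 0.14 (edgeR adjusted p = 0.217).

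Transcripts of 24 kinases that are known HSP90 clients gave 0 calls in either direction by edgeR. At an unadjusted edgeR p under 0.05, 5 were higher and 1 lower (14.9% and 16.6% of all genes). DESeq2 called 3 and 1 (6.37% and 9.29% of all genes), and the median was 0.09. ARAF and BTK, also listed, were tested only with every row as deposited. The smallest adjusted p were those of SYK, a kinase of immune receptor signalling (log2 0.38 ± 0.12, edgeR adjusted p = 0.0539), and EIF2AK1, the haem-regulated eIF2 kinase (0.32 ± 0.11, 0.0659). FLT3, the mutated receptor of this line, was at 504 ± 35.4 CPM after DMSO and 468 ± 47.8 CPM after UC-764864 (log2 -0.11 ± 0.11, 95% interval -0.36 to 0.14). Without UDI0055, 4 were higher and 1 lower, where 11.1% and 12.6% of all genes were, and with the GC trend removed 5 were higher, where 16.2% were.

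Among 18 other genes of the heat shock response, 4 rose and 1 fell, where 5.11% and 8.13% of all tested genes did, and the median was 0.26. HSPA6 and HSPA1A, inducible HSP70 genes, rose from 1.33 ± 0.200 to 5.40 CPM and from 2.24 ± 0.609 to 7.03 CPM (edgeR adjusted p = 0.00114 and 0.0025). HSPA1B, nearly identical to HSPA1A so that reads can be split between them, was at 0.30 ± 0.14. HSPA8, the constitutive HSP70, rose by 0.39 ± 0.10 and HSPH1, its exchange factor, by 0.44 ± 0.11 on the log2 scale (edgeR adjusted p = 0.0256 and 0.0288). Without UDI0051, UDI0052 or UDI0054 the number that rose was 2, where 0.452% to 2.12% of all genes did. HSPE1, the mitochondrial co-chaperonin, was the gene that fell (log2 -0.47 ± 0.12, edgeR adjusted p = 0.0311). Among fits that left out 1 library, HSPE1 passed only without UDI0055 (edgeR adjusted p = 0.0135), with values of 0.0520 to 0.169 in the others. HSF1 itself was at 0.07 ± 0.17.

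**Figure D5:**
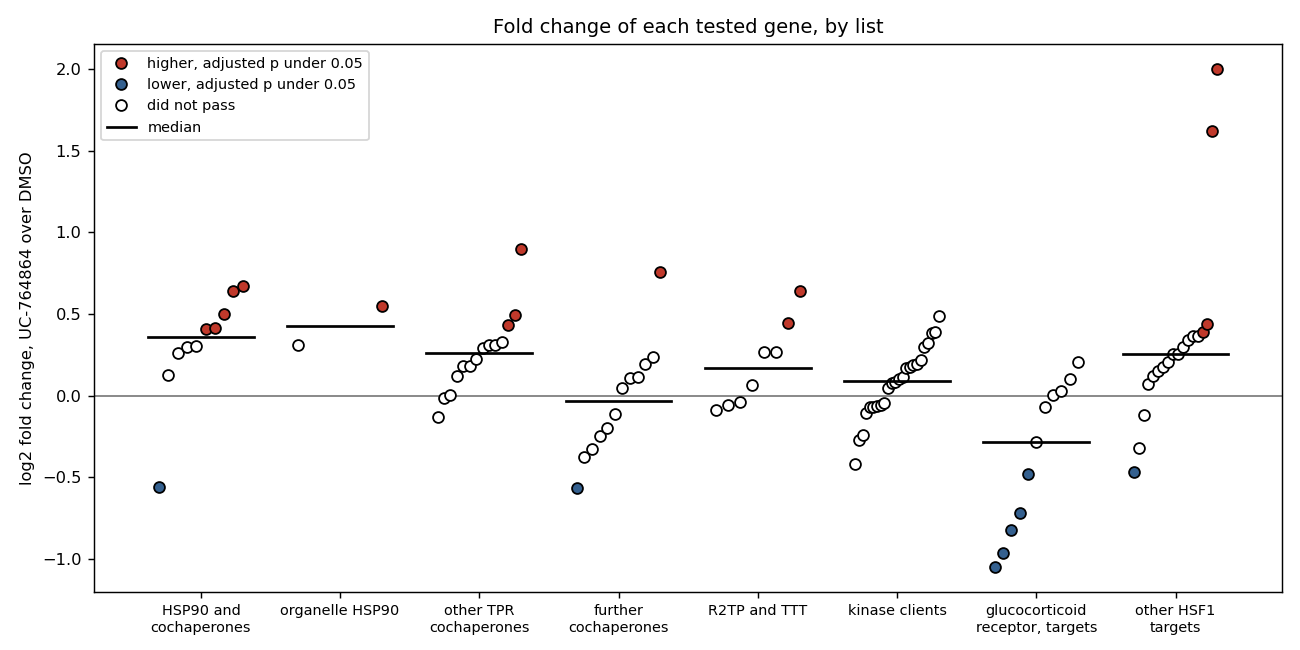
Log2 fold change (UC-764864 over DMSO) of each tested gene by list, with genes called higher in red, called lower in blue, those that did not pass in white and the median of each list as a line. The 10 genes have a median of 0.36 with PTGES3 as the only negative value, and the glucocorticoid receptor list has a median of -0.28.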

How the data were processed

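Per the labels' protocols, RNA was isolated with an RNeasy kit and poly(A) libraries were read in 75 bp pairs. The authors deposited raw whole-number counts per gene symbol. The submitters' processing notes name HISAT2 2.0.5, featureCounts 1.5.2, FastQC 0.11.7 and GRCh37. Annotation release and strand setting: not given in the sources used here. Columns were assigned to UC-764864 or DMSO from a second deposited table, which holds no replicate numbers.

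After 3799 rows at 0 in stretches of UDI0055 were dropped, the other 52839 were filtered with filterByExpr, scaled by TMM and tested with edgeR 4.0.16 (R 4.3.3; glmQLFit, glmQLFTest, treatment only), with Benjamini-Hochberg adjustment over 13490 genes; SE is the log2 fold change over the square root of F. Alternatives were DESeq2 1.42.0, other scalings and filters, GC offsets (lowess, span 0.3, on GC of the longest GENCODE 29 transcript, known for 86.3% of tested genes) and left-out libraries. The test was tried on simulated counts first. Library pairs differed by more than sampling noise (chi-square per degree of freedom of at least 4.40), so each library counts as 1 sample. A floor of 3 counts was 0.123 to 0.198 CPM, counting error only. Exon length was the union of a gene's exons in the basic GENCODE 29 set, such as 10628 bases for FKBP5 and 2077 for PTGES3. Levels per kilobase thus depend on the isoforms annotated, and ranks between genes were not tested.

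The 10 genes, the lists and the alternatives were chosen with earlier results of these data known. Named genes are the 10, annotated copies and the 5 genes most like the HSP90 pair. Named too are list genes that passed or, where none did, the 2 with the smallest p. RUVBL2, FLT3, NR3C1, HSF1, HSP90B1, HSPA1B, HSPD1, SERPINH1 and FLCN were named outside that rule, after their values were seen. SUGT1, TSC1, TOMM70, TSC22D3, ARAF and BTK were also outside it, named for a domain, a motif match or a missing test. So were the markers and the genes with overlapping exons.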

Additional observations from a re-analysis of the deposited data

How the results depend on the processing

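No paired analysis was possible because the columns of the count table carry no replicate number. Each of the 10 genes kept the direction of its change in all alternatives run. With every row as deposited, edgeR called 22 genes higher and 125 lower, with 0 of the 10 passing: HSP90AA1 was at 0.39, HSP90AB1 at 0.39, AHSA1 at 0.65, STIP1 at 0.62, FKBP4 at 0.48 and PTGES3 at -0.58 (adjusted p from 0.0568 to 0.182). That setting also left 0 calls in the organelle, TPR, further cochaperone (non-TPR below), R2TP and glucocorticoid lists, and 2 higher and 0 lower among other heat shock genes. GC removal gave 1881 calls higher and 1792 lower over all genes and 9 higher among the 10. Calls higher numbered 2 (organelle), 7 of 13 (TPR), 4 (R2TP), 5 (kinase clients) and 8 (heat shock). Non-TPR calls lower were 0, with a median of 0.057 over 11 genes, and the glucocorticoid median was -0.22. FKBP5, CHORDC1, CDC37 and CACYBP then passed at 0.33, 0.80, 0.24 and 0.31. With that and without UDI0052 and UDI0056, an alternative chosen after seeing the data, HSP90AA1 (0.28), HSP90AB1 (0.20) and TRAP1 missed the threshold (0 organelle calls). CHORDC1 passed at 0.76 there, 1 R2TP gene was higher, and 3 glucocorticoid genes and 0 non-TPR genes were lower. Of all genes tested there, 4.85% were higher and 6.59% lower. Medians in that fit were 0.10 (non-TPR, again 11 genes), 0.020 (kinase clients), -0.11 (glucocorticoid) and 0.18 (heat shock). Without UDI0052 and UDI0056 alone, HSP90AA1 was at 0.31, HSP90AB1 at 0.29, CHORDC1 passed at 0.34 and 2 heat shock genes were higher. HSP90AA1 missed at 0.40 with RLE factors; with library size only, 3 of the 10 were higher, and HSP90AA1 and HSP90AB1 missed at 0.37 each. Without a filter, 1676 genes were lower, and the kinase list gave 1 higher and 1 lower; DESeq2 gave it 3 and 1. No cause was tested for these shifts, and the last alternative added after seeing the data, copies summed with their genes, changed no call.

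Leaving out each library in turn gave 62 to 1525 genes higher and 278 to 1729 lower, and 0 to 5 of the 10 higher and 0 to 1 lower. The log2 fold changes ranged from 0.26 to 0.49 (HSP90AA1), 0.34 to 0.54 (HSP90AB1), 0.61 to 0.79 (AHSA1), 0.57 to 0.77 (STIP1), 0.42 to 0.60 (FKBP4), -0.66 to -0.48 (PTGES3) and 0.15 to 0.49 (CHORDC1). List calls ranged from 0 to 1 (organelle, higher), 0 to 5 (TPR, higher), 0 to 1 and 0 to 3 (non-TPR, higher and lower), 0 to 2 (R2TP, higher), 0 to 4 and 0 to 1 (kinase clients, higher and lower), 2 to 5 (glucocorticoid, lower), and 2 to 6 and 0 to 1 (heat shock, higher and lower). Medians ranged from -0.13 to 0.045 (non-TPR), 0.085 to 0.19 (kinase clients) and -0.40 to -0.12 (glucocorticoid).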

Other observations

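The genes whose 6 library values ran closest to the mean of HSP90AA1 and HSP90AB1, by root mean square difference of centred log2 CPM among 9868 genes outside the 10 with a mean of at least 5 CPM, were WDR3 (0.0148), MCM6 (0.02), UIMC1 (0.0293), DHX9 (0.0296) and POLD3 (0.0296). WDR3 is a factor of small ribosomal subunit assembly, MCM6 a subunit of the replicative helicase, UIMC1 a reader of ubiquitin chains at DNA breaks, DHX9 an RNA helicase and POLD3 a subunit of DNA polymerase delta. Each lay closer than FKBP5 (0.107), the closest of the other 8 members, while PTGES3 was the farthest of these at 0.496. HSP90AA1 and HSP90AB1 themselves each lay 0.108 from their mean, so closeness to it is not closeness to either gene. WDR3 went from 122 to 163 CPM and MCM6 from 319 to 420 CPM (log2 0.43 ± 0.11 and 0.40 ± 0.11). Genes picked for closeness to a pair that rose must rise with it, so these changes are no separate result. With 6 libraries and so many candidates, closeness is a description of these libraries only.

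The longer HSF1 motif that marks HSP90AA1, HSP90AB1 and CHORDC1 was also found before a start of 4 of the 16 other heat shock genes with a RefSeq window, HSPA6, HSPA8, HSPD1 and SERPINH1. HSPA6 and HSPA8 rose, and HSPD1 and SERPINH1 did not pass. The shorter form, GAANNTTC or TTCNNGAA, lay in 11.6% of all windows, those of 3813 of 27305 genes. It was found for 10 of those 16 heat shock genes, of which HSPA1A, HSPA6 and HSPA8 rose and the others did not pass. Of the 9 members with a window, the same 3 held it as held the longer form. In the lists of the rest of the HSP90 system it was found for TOMM70 (TOMM70A in the counts), NUDC and TSC1, of which NUDC was called higher. The shorter form was also found for 2 kinase clients, neither of them called, and for DDIT4 of the glucocorticoid list, which fell. AHSA1 and STIP1, which also rose, had neither form in their windows, and FKBP4 had no window.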
